A study of Mus musculus with 16 samples.

Results

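The core autophagy genes described here are 10 genes chosen by name: Map1lc3a, Map1lc3b, Gabarap, Gabarapl1, Atg16l1, Atg5, Atg7, Atg4b, Sqstm1 and Becn1. They were 10 of the 55414 genes in the table of counts, and all 10 were among the 11809 genes that passed a filter on low counts. RNA was measured in Paneth cells, which had been sorted by flow cytometry from the small intestine of C57BL/6J mice. There were 16 libraries in 4 groups of 4, each from 1 mouse per the methods of the study. Every mouse was given 2 injections, with DEX or its vehicle PBS and 1 h later with tumour necrosis factor (TNF) or PBS, and was sampled 3 h after that. Groups are named by both injections, as PBS+PBS and DEX+PBS without TNF and PBS+TNF and DEX+TNF with it. The labels do not spell out DEX, which commonly stands for dexamethasone, a synthetic glucocorticoid. The age of the mice is not given in the sources used here.

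Autophagy encloses part of the cytoplasm in a growing double membrane, the phagophore, which closes into an autophagosome and fuses with a lysosome. Small ubiquitin-like proteins of the ATG8 family (the LC3 and GABARAP proteins) are trimmed by ATG4 proteases, activated by ATG7 and joined to the membrane by a complex of ATG12, ATG5 and ATG16L1. Cargo receptors such as p62, the product of Sqstm1, bind ubiquitin-marked cargo and ATG8 proteins. Paneth cells are granule-filled secretory cells at the base of the intestinal crypt, and mice with reduced or altered ATG16L1 are known for abnormal Paneth cell granules. RNA levels, as measured here, do not report autophagic flux, which is set largely on proteins and membranes.

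Levels below are normalised CPM, that is CPM computed with library sizes scaled by trimmed mean of M-values (TMM) factors. Totals ran from 7286307 to 15832111 counts per library. Each member had between 65 (Atg16l1) and 12263 (Sqstm1) reads in a library. The Paneth cell markers Lyz1, Defa24, Mmp7, Itln1, Ang4 and Reg3g together made up 322709 to 463522 plain CPM in every library. PBS+PBS 4 and PBS+TNF 1 had the lowest TMM factors (0.503 and 0.418) and the highest shares of counts in alpha-defensin (Defa) genes (54.5% and 59.3%, against 32.2% to 49.3% in the other libraries). DEX+TNF 4 had the highest marker sums of enterocytes, tuft cells, stem cells and cycling cells. In such bulk RNA, fewer cells of a type and less RNA per cell cannot be told apart. The 6 enterocyte markers of DEX+TNF 4 summed to 400.3 plain CPM (4.52 to 116 in the others) and the 3 tuft markers to 598 (0.0825 to 121). Goblet cell markers (5 genes) varied widely among the libraries, from 1272 plain CPM in PBS+TNF 1 to 9317 in PBS+TNF 2, with 3388 in DEX+TNF 4.

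Libraries DEX+TNF 3 and 4 had low levels of TNF targets for their label. Nfkbia, which encodes the NF-kB inhibitor I-kappa-B alpha and is a rapid TNF target, had levels of 330.0, 382, 28.3 and 41.0 CPM across DEX+TNF 1 to 4. The range was 277 to 337 CPM for PBS+TNF and 15.6 to 24.1 CPM for PBS+PBS. Icam1, an adhesion molecule induced by TNF, was at 116, 114, 0.102 and 1.40 CPM, and Tnfaip3, which encodes the NF-kB inhibitor A20, at 115, 109.6, 2.25 and 7.38 CPM. The libraries labelled DEX+TNF 3 and 4 were thus near the groups without TNF for these genes. The highest values without TNF were 27.3 CPM (Nfkbia), 0.257 CPM (Icam1) and 6.53 CPM (Tnfaip3). DEX+TNF 4 lay above them for each of these genes, and DEX+TNF 3 for Nfkbia only. The glucocorticoid target Fkbp5 was at 44.6 and 135 CPM in them (DEX+PBS 47.3 to 79.5, PBS+PBS 6.51 to 21.4), and Sgk1, another such target, was at 33.6 and 115 CPM, against 1.11 to 3.64 CPM in PBS+PBS. Several results that rest on the DEX+TNF group are therefore given with and without these libraries. They were left out because of their TNF targets, so p-values for TNF without them are not independent of that choice. DEX+TNF 1 and 2 alone then make up the group.

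Among the members, Gabarap had the highest level in PBS+PBS when normalised CPM was divided by the length of the merged exons in kilobases. It stood at 68.6 ± 18.0 CPM per kilobase (SD, n = 4), followed by Sqstm1 at 20.4 ± 0.552. Gabarapl1 (11.4 ± 1.41), Map1lc3b (10.1 ± 2.66), Atg5 (8.02 ± 2.96), Map1lc3a (6.78 ± 1.74) and Becn1 (6.05 ± 0.623) formed the middle, and the libraries of each overlapped those of its neighbour in this order. Atg7 (4.30 ± 0.732), Atg4b (1.95 ± 0.299) and Atg16l1 (0.685 ± 0.108) followed without overlap. The place of Map1lc3b depended on the length used, since its merged exons span 7617 bases and its canonical transcript 889. It was at rank 4 with merged exons, at rank 3 with the longest transcript and at rank 2 with the canonical transcript, where Sqstm1 was at rank 3. With the canonical transcript Map1lc3b (86.6 ± 22.8 CPM per kilobase) lay close to Gabarap (87.7 ± 23.0), and their libraries overlapped.

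**Figure D1:**
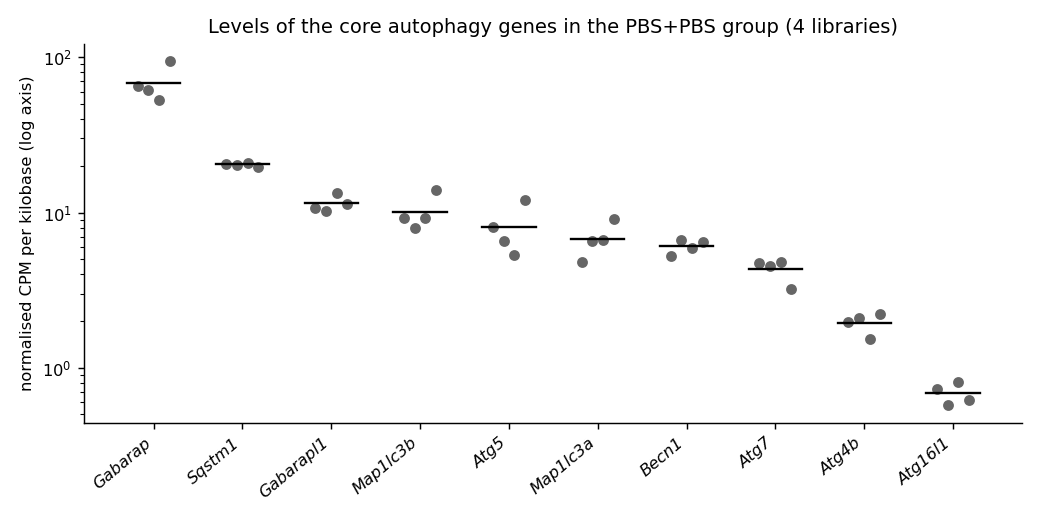
Normalised CPM per kilobase of merged exons (log axis) of the 10 core autophagy genes in PBS+PBS, ordered by mean; points are the 4 libraries and bars their mean. Gabarap lies above Sqstm1 in every library, and Atg16l1 lies lowest, at 0.572 to 0.811 CPM per kilobase.

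Map1lc3a, Gabarap and Gabarapl1 are shown first by the ends of their coding sequences, because ATG4 proteases cut their protein products after a glycine near the end, which exposes it for joining to lipid. The sequences were read from the first-numbered transcript of each gene in GENCODE M39 (GRCm39), 5′ to 3′ up to the stop codon, with the last glycine codon in capitals.
Map1lc3a: caagaaaccttcGGCttctga
Gabarap: gaaagcgtctatGGTctgtga
Gabarapl1: gaaagtgtctatGGAaaatga
All 3 have 1 codon between the glycine and the stop. Over the coding sequences of the 4 ATG8-family members, the pairs Gabarap and Gabarapl1 (74.9% identical over 354 aligned coding bases) and Map1lc3a and Map1lc3b (76.0% over 366) were closer to each other than to the other pair (51.4% to 59.5%). The longest identical run between any of these genes was 17 bases. Map1lc3b had 4 processed pseudogenes with an aligned stretch of at least 150 bases at 95% identity or more, which held 172 counts in all, against 15148 for Map1lc3b.

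Map1lc3a and Map1lc3b encode LC3A and LC3B, the proteins most used to mark autophagosomes. Map1lc3b (chr8:122317100-122325499, plus strand, GRCm39) was at 70.4, 60.9, 69.9 and 107 CPM in PBS+PBS, at 113, 75.7, 83.0 and 51.8 CPM in PBS+TNF, at 53.0, 62.6, 74.3 and 47.4 CPM in DEX+PBS and at 72.0, 74.1, 117 and 56.7 CPM in DEX+TNF. The groups overlapped throughout, and the highest value of every group was in its library with the lowest TMM factor (0.503 in PBS+PBS 4, 0.418 in PBS+TNF 1, 0.740 in library 3 of DEX+PBS and 0.755 in that of DEX+TNF). In plain CPM, without these factors, Map1lc3b was instead lowest of its group in PBS+PBS 4 (53.6), PBS+TNF 1 (47.1) and DEX+PBS 3 (55.0), and highest in DEX+TNF 3 (88.3). The log2 fold change was 0.07 (95% interval -0.51 to 0.65) for PBS+TNF versus PBS+PBS. Map1lc3a (chr2:155118217-155119998, plus strand) was at 6.34, 8.68, 8.76 and 11.9 CPM in PBS+PBS and at 16.0, 10.6, 11.7 and 11.4 CPM in PBS+TNF. Its log2 fold change there was 0.47 (edgeR adjusted p = 0.268, SE 0.26), and 1 library of PBS+PBS lay among the PBS+TNF values. In DEX+PBS it ran from 7.19 to 16.4 CPM and in DEX+TNF from 9.32 to 12.9 CPM, again with overlap.

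Gabarap and Gabarapl1 encode the GABARAP branch of the family, which acts late in autophagosome growth and closure. Gabarap (chr11:69881888-69886109, plus strand) ranged over 119 to 213 CPM (PBS+PBS), 125 to 197 CPM (PBS+TNF), 122 to 200.0 CPM (DEX+PBS) and 113 to 150.1 CPM (DEX+TNF), with log2 fold changes between -0.16 and -0.06 in the 4 pairwise comparisons. Its highest value in each group was in the same 4 libraries with the lowest TMM factors, whereas in plain CPM it was lowest in PBS+PBS 4 (107), PBS+TNF 1 (82.3) and DEX+TNF 3 (113). Gabarapl2, the remaining GABARAP gene of the family and not a member of the set, went further in those libraries, at 51.1 CPM in PBS+PBS 4 (11.0 to 15.1 in the other PBS+PBS libraries), 50.7 CPM in PBS+TNF 1 (11.9 to 19.8), 28.6 CPM in DEX+PBS 3 (12.2 to 17.9) and 31.1 CPM in DEX+TNF 3 (13.7 to 15.1). The part of scaling in these values was not tested.

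Gabarapl1 (chr6:129509725-129520544, plus strand) was at 39.4, 38.0, 49.7 and 42.1 CPM in PBS+PBS, at 49.3, 60.0, 50.5 and 50.9 CPM in PBS+TNF, at 21.5, 36.6, 35.6 and 24.9 CPM in DEX+PBS and at 47.0, 63.0, 58.4 and 33.6 CPM in DEX+TNF. All DEX+PBS libraries lay below all PBS+PBS libraries, and DEX+TNF 4 alone among the DEX+TNF libraries lay within the range of DEX+PBS. In plain CPM PBS+PBS 4 (21.2) instead lay below all DEX+PBS libraries (24.3 to 40.4), and the other PBS+PBS libraries (41.0 to 65.1) above them. For DEX+PBS versus PBS+PBS the log2 fold change was -0.51 (SE 0.22), with an unadjusted p = 0.0348 and an edgeR adjusted p of 1. With TNF after DEX, against DEX+PBS, it was 0.77 (edgeR adjusted p = 0.172, SE 0.22). It was 0.89 without DEX+TNF 3 and 4 (edgeR adjusted p = 0.0221, SE 0.23), and DESeq2 called it with all libraries (adjusted p = 0.0357). DEX+TNF 3, which was near the groups without TNF for Nfkbia, was at 58.4 CPM for Gabarapl1, above all DEX+PBS libraries.

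**Figure D2:**
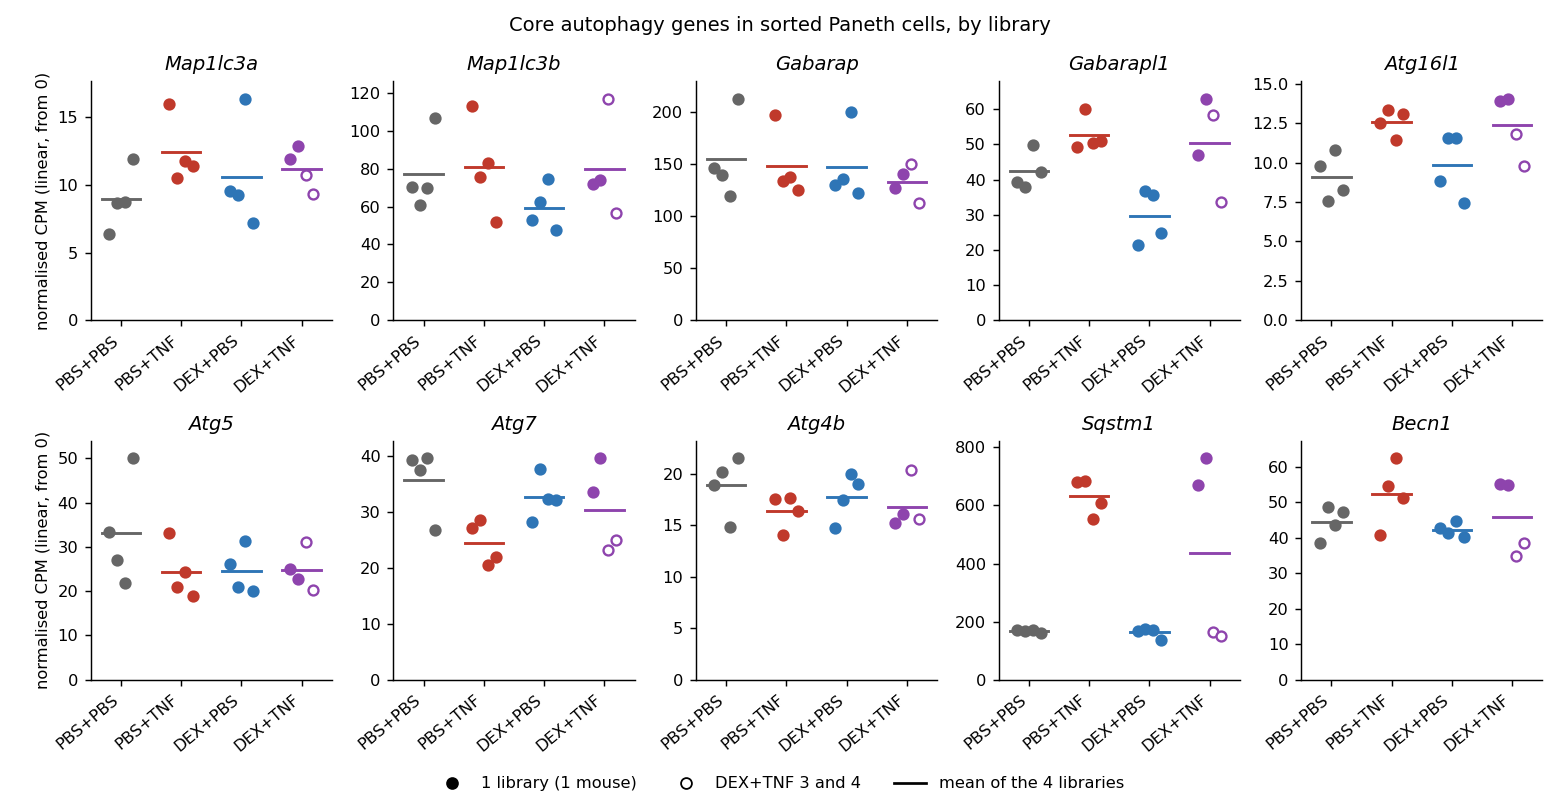
Normalised CPM (linear axis from 0) of the 10 core autophagy genes in each of the 16 libraries, by group; points are libraries, open points DEX+TNF 3 and 4, and bars the mean of the 4 libraries. Sqstm1 lies at 554 CPM or above in all PBS+TNF libraries and in DEX+TNF 1 and 2, and at 175 CPM or below in the other libraries, and in the 4 pairwise comparisons the groups of the other members overlap except for Atg16l1 (PBS+TNF versus PBS+PBS) and Gabarapl1 (DEX+PBS versus PBS+PBS).

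Atg16l1, Atg5, Atg7 and Atg4b belong to the machinery that trims ATG8 proteins and joins them to lipid. Atg16l1 (chr1:87683592-87720150, plus strand) encodes the protein that places the joining complex on the membrane. It was at 9.77, 7.60, 10.8 and 8.29 CPM in PBS+PBS and at 12.5, 13.4, 11.5 and 13.1 CPM in PBS+TNF, so that these groups did not overlap. The difference (log2 fold change 0.47, 95% interval 0.04 to 0.89, SE 0.20) had an unadjusted p = 0.0337 and did not pass the threshold after adjustment over all genes (edgeR adjusted p = 0.147). Among all genes tested, 19.5% had groups that did not overlap in this comparison. In plain CPM the groups overlapped for Atg16l1, at 4.17 to 14.1 in PBS+PBS and 5.23 to 18.9 in PBS+TNF, with PBS+TNF 1 at 5.23. After DEX, Atg16l1 was at 8.86, 11.6, 11.6 and 7.44 CPM without TNF and at 14.0, 14.1, 11.8 and 9.77 CPM with TNF, with a log2 fold change of 0.33 (SE 0.20), or 0.51 (edgeR adjusted p = 0.185, SE 0.23) without DEX+TNF 3 and 4. Atg16l1 had 65 to 264 reads per library, so that counting alone gives an error of about 12.4% at the lowest.

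Atg7 (chr6:114620044-114837576, plus strand) encodes the enzyme that activates the ATG8 proteins and ATG12. It was at 39.2, 37.5, 39.6 and 26.8 CPM in PBS+PBS and at 27.2, 28.5, 20.5 and 22.0 CPM in PBS+TNF. PBS+PBS 4, the library of that group with the high Defa share, was the only one that lay among the PBS+TNF values. The log2 fold change was -0.55 (SE 0.21, 95% interval -0.99 to -0.11), with an edgeR adjusted p = 0.0974, and thus not called. It passed the threshold without PBS+PBS 4 (log2 fold change -0.68, edgeR adjusted p = 0.0349) and, by little, without DEX+TNF 3 and 4 (-0.55, edgeR adjusted p = 0.0497). With all libraries it also passed with a filter at a mean of at least 5 CPM (-0.58, edgeR adjusted p = 0.0453). The same held with upper-quartile in place of TMM factors (-0.66, edgeR adjusted p = 0.0243). In DEX+PBS Atg7 was at 28.3 to 37.7 CPM and in DEX+TNF 1 to 4 at 33.6, 39.6, 23.3 and 25.1 CPM. For DEX+TNF versus PBS+TNF its log2 fold change was 0.31 (edgeR adjusted p = 0.601, SE 0.21), and 0.58 (edgeR adjusted p = 0.444, SE 0.22) without DEX+TNF 3 and 4.

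Atg5 (chr10:44142076-44240308, plus strand), whose product is joined to ATG12, was at 33.4, 27.0, 21.9 and 50.0 CPM in PBS+PBS and at 33.1, 20.9, 24.3 and 18.8 CPM in PBS+TNF. The value of 50.0 CPM came from PBS+PBS 4, and the highest value of each group was, as for Map1lc3b and Gabarap, in its library with the lowest TMM factor. In plain CPM Atg5 was lowest of its group in PBS+PBS 4 (25.1) and PBS+TNF 1 (13.8). With normalised CPM the groups overlapped (log2 fold change -0.45, edgeR adjusted p = 0.299, SE 0.26). In the DEX groups Atg5 ran from 20.0 to 31.4 CPM, and its log2 fold change for PBS+TNF versus PBS+PBS stayed below 0 with each library left out (-0.64 to -0.21). Atg4b (chr1:93679222-93718332, plus strand), the protease that trims the ATG8 proteins, was among the steadiest members, at 14.0 to 21.5 CPM over all 16 libraries, with log2 fold changes between -0.20 and 0.03 in the pairwise comparisons.

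Becn1 (chr11:101176769-101193122, minus strand) encodes beclin 1, a subunit of the class III phosphatidylinositol 3-kinase complex that marks the site where the phagophore forms. It was at 38.6, 48.8, 43.6 and 47.4 CPM in PBS+PBS, 40.8, 54.7, 62.4 and 51.3 CPM in PBS+TNF, 42.7, 41.3, 44.7 and 40.3 CPM in DEX+PBS and 55.1, 54.8, 34.9 and 38.6 CPM in DEX+TNF. DEX+TNF 1 and 2 lay above all DEX+PBS libraries, and DEX+TNF 3 and 4 below them all. Against DEX+PBS the log2 fold change in DEX+TNF was 0.12 (SE 0.19), or 0.38 (95% interval -0.04 to 0.80) without DEX+TNF 3 and 4, and for PBS+TNF versus PBS+PBS 0.23 (edgeR adjusted p = 0.497, SE 0.19). The exons of Becn1 share 3227 bases with Cntd1 on the opposite strand, but Cntd1 held 49 counts over all libraries against 10146 for Becn1.

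Sqstm1 was the only member called in the main fit, that is by edgeR with TMM factors, the filterByExpr filter on low counts and all libraries. Its RNA rose 3.78-fold 3 h after TNF in mice first given PBS. Sqstm1 (chr11:50089572-50107684, minus strand, GRCm39) encodes p62, a receptor that carries ubiquitin-marked cargo into autophagosomes and is itself degraded there, and that also takes part in NF-kB and NRF2 signalling. It was at 169.6, 167, 171 and 161 CPM in PBS+PBS and at 683, 685, 554 and 607 CPM in PBS+TNF. In normalised CPM the lowest PBS+TNF library lay far above the highest PBS+PBS library, and the 2 libraries with low TMM factors lay with their groups. In plain CPM these 2 were the lowest of their groups, PBS+PBS 4 at 81.0 and PBS+TNF 1 at 285. The groups did not overlap there either, but lay closer together, at 81.0 to 225 in PBS+PBS and 285 to 876 in PBS+TNF. The log2 fold change was 1.92 (SE 0.42, 95% interval 1.04 to 2.80, edgeR adjusted p = 0.00687). With each library left out in turn it stayed between 1.86 and 1.98, with an edgeR adjusted p of at most 0.0247. Sqstm1 shares 1412 exonic bases with Mrnip and 141 with Mgat4b, both on the opposite strand, which held 66 and 17469 counts over all libraries against 74937 for Sqstm1.

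In DEX+PBS, Sqstm1 was at 169, 175, 169.5 and 136 CPM, close to PBS+PBS (log2 fold change -0.04, 95% interval -0.89 to 0.81). In DEX+TNF 1 to 4 it was at 669, 763, 163 and 151 CPM. DEX+TNF 1 and 2 were thus at the level of PBS+TNF, and DEX+TNF 3 and 4 at that of the groups without TNF. Nfkbia, Icam1 and Tnfaip3 were split in a similar way in the plot of Sqstm1 beside these TNF targets. Against DEX+PBS the log2 fold change in DEX+TNF was 1.42 (SE 0.41, 95% interval 0.56 to 2.29) and did not pass the threshold with all libraries (edgeR adjusted p = 0.169), though DESeq2 called it (adjusted p = 0.0246). Without DEX+TNF 3 and 4, left out because of their TNF targets, it was 2.14 (SE 0.21, 95% interval 1.69 to 2.59, edgeR adjusted p = 5.44e-06). This p is not independent of that choice. Without DEX+TNF 3 alone it was 1.70 (edgeR adjusted p = 0.0222) and without DEX+TNF 4 alone 1.72 (edgeR adjusted p = 0.0186). Without DEX+TNF 1 it was 1.14 (edgeR adjusted p = 0.530) and without DEX+TNF 2 it was 1.01 (edgeR adjusted p = 0.582).

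Whether DEX changed the TNF response of Sqstm1 was asked by 2 further contrasts. Against PBS+TNF the log2 fold change in DEX+TNF was -0.53 (edgeR adjusted p = 0.646, SE 0.40) with all libraries and 0.18 (95% interval -0.28 to 0.64) without DEX+TNF 3 and 4, so that its sign turned. The interaction, in which the log2 fold change of TNF among PBS-first mice is subtracted from that among DEX-first mice, was -0.49 (95% interval -1.69 to 0.71) with all libraries and 0.22 (95% interval -0.37 to 0.82) without them. Neither passed the threshold, and these intervals leave room for differences in both directions.

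**Figure D3:**
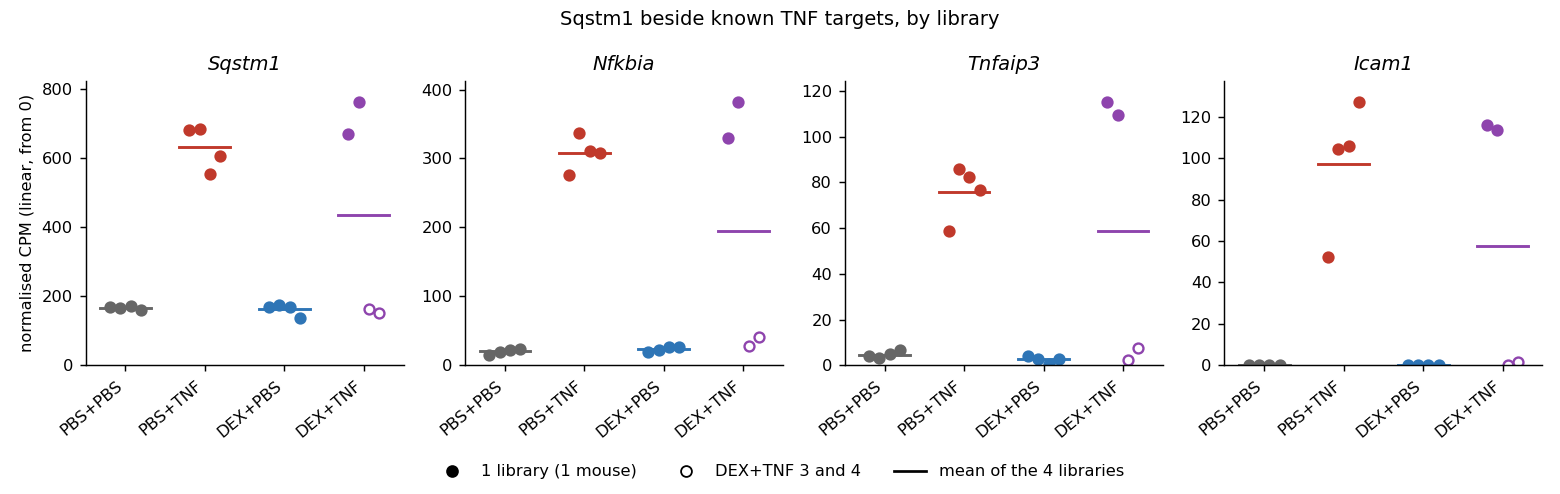
Normalised CPM (linear axes from 0) of Sqstm1 and of the TNF targets Nfkbia, Tnfaip3 and Icam1 in each library, by group; open points are DEX+TNF 3 and 4 and bars the mean of the 4 libraries. In all 4 panels DEX+TNF 1 and 2 lie with or above PBS+TNF, and DEX+TNF 3 and 4 lie near the groups without TNF.

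The promoter of Sqstm1 is printed because it belongs to the member that changed. The 250 bases before the start are given (RefSeq, GRCm38.p6, chr11:50210821-50211070, minus strand, 5′ to 3′), with a match to the NF-kB consensus in capitals.
Sqstm1: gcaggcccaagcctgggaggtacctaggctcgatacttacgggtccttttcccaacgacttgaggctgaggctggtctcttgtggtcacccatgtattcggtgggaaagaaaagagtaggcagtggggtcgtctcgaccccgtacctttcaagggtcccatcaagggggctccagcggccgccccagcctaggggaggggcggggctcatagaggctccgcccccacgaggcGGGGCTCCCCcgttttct
The match occurs on both strands and begins 18 bases before the start. Windows of 300 bases that also hold the 50 after the start were searched on both strands. RefSeq held one for 7 of the 10 members, and Sqstm1 was the only one of the 7 with this match, which 8.46% of the 32851 promoters of the table also hold. The E-box CACGTG was found in the RefSeq windows of Atg5 and Atg7 (7.15% of all promoters), and the antioxidant response element TGACNNNGC in the window of Map1lc3b (12.4%). The upstream part of the Atg7 window ends at 114671095 (GRCm38.p6), and GENCODE M39 places the start of the gene at 114620058 (GRCm39). For Gabarapl1 on the same chromosome these positions (129533191 and 129510123) lie closer together. The Atg7 window thus lies inside the gene, past that start. The glucocorticoid receptor motif ACANNNTGT (6.85% of all promoters) and the longer lysosomal-gene motif TCACGTGA (0.974%), which contains the E-box, were found in none of the 7. Such matches describe the letters of these windows only.

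Seen as a set, 1 of the 10 members was called for PBS+TNF versus PBS+PBS, where 12.5% of all genes tested were called (7.15% higher and 5.35% lower). There 3 members had an unadjusted p under 0.05, as did 3116 of the 11809 genes tested. The median log2 fold change of the members was 0.15, against -0.03 over all genes tested. In normalised CPM, 2 of the 10 (Sqstm1 and Atg16l1) had groups that did not overlap (19.5% of all genes). For DEX+PBS versus PBS+PBS edgeR called 0 members (0.00847% of all genes) and 1 member had an unadjusted p under 0.05 (224 of all genes tested). There 1 member, Gabarapl1, had groups that did not overlap in normalised CPM, against 1.88% of all genes. For DEX+TNF versus PBS+TNF edgeR called 0 members (0.339% of all genes). At an unadjusted p under 0.05 there were 0 members (1408 of all genes tested), and 0 were without overlap (6.38% of all genes). For DEX+TNF versus DEX+PBS edgeR also called 0 members (0.339% of all genes), whereas DESeq2 called 2, Sqstm1 and Gabarapl1 (2.19% of all genes). There 2 members had an unadjusted p under 0.05 (1227 of all genes tested) and 0 were without overlap (4.68% of all genes). For the interaction edgeR and DESeq2 called 0 members (0% of all genes by edgeR and 0.0762% by DESeq2). An unadjusted p under 0.05 was found there for 0 members (642 of all genes tested).

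Without DEX+TNF 3 and 4, when 12223 genes were tested, edgeR called 2 members for PBS+TNF versus PBS+PBS (Sqstm1 higher and Atg7 lower; 17.7% of all genes), 0 members for DEX+TNF versus PBS+TNF (0% of all genes) and 2 for DEX+TNF versus DEX+PBS (Sqstm1 and Gabarapl1, both higher; 10.5% of all genes). In that fit 1 member had an unadjusted edgeR p under 0.05 for DEX+TNF versus PBS+TNF (1206 of all genes tested). There were 3 for DEX+TNF versus DEX+PBS (3055 of all genes tested) and 1 for the interaction (674 of all genes tested). The comparisons share groups, so that their calls are not independent. Log2 fold changes of the members other than Sqstm1 lay between -0.55 and 0.77 with all libraries in the 4 pairwise comparisons.

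**Figure D4:**
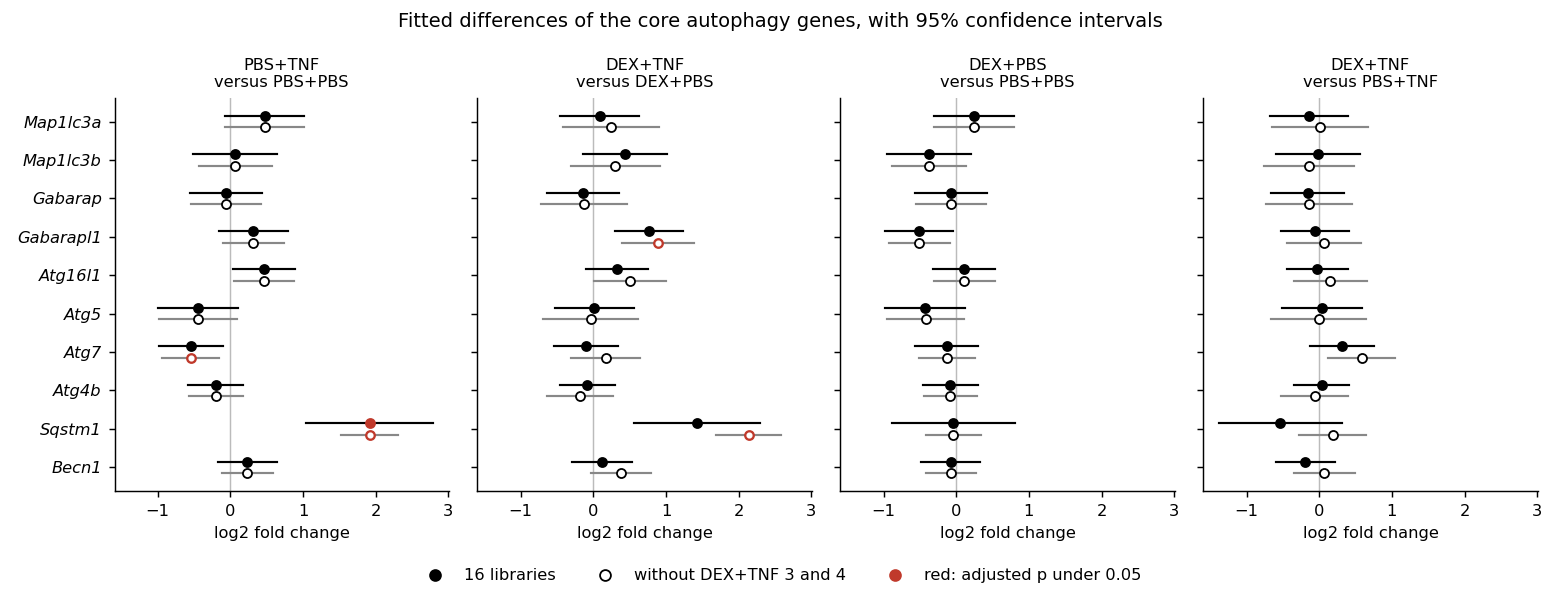
Log2 fold changes of the 10 core autophagy genes with 95% intervals (lines) in 4 comparisons; filled points use all 16 libraries, open points leave out DEX+TNF 3 and 4, and red marks an adjusted p under 0.05 by edgeR. Sqstm1 stands apart after TNF, and its value for DEX+TNF versus DEX+PBS moves from 1.42 to 2.14 without these libraries.

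A list of 72 other genes of the pathway, sorted into 8 roles, was read in the same fit, and all 72 were among the genes tested. For PBS+TNF versus PBS+PBS, 14 of the 72 were called, 8 higher and 6 lower, beside 12.5% of all genes tested (7.15% higher and 5.35% lower), and the median log2 fold change was -0.06. The count was 8 without PBS+PBS 1 or PBS+TNF 3 (7.6% and 8.33% of all genes in these fits). It was 9 without PBS+PBS 2, PBS+TNF 1 or PBS+TNF 4 (7.99%, 10.2% and 8.99% of all genes). With 1 library left out the count was 16 at most, and the share of all genes called ran from 7.6% to 14.2%. The receptors moved in both directions. Optn, which encodes optineurin, a receptor for ubiquitin-marked bacteria and mitochondria, rose by a log2 fold change of 1.50 (edgeR adjusted p = 0.00641, SE 0.32). It was at 6.17 to 10.4 CPM in PBS+PBS and 20.2 to 25.9 CPM in PBS+TNF. Nbr1, a receptor related in structure to p62, fell by 0.69 on the log2 scale (edgeR adjusted p = 0.0333), from 125 to 227 CPM in PBS+PBS to 97.7 to 128 CPM in PBS+TNF, with overlap in 1 library of each group. Ncoa4, the receptor for ferritin, fell by 0.88 (edgeR adjusted p = 0.00843) without overlap, at 11.8 to 14.1 CPM in PBS+PBS and 4.82 to 8.44 CPM in PBS+TNF. Of the 12 receptor genes listed, 1 rose, 3 fell and 8 did not pass the test.

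Among the regulators, Tbk1, the kinase that phosphorylates optineurin and p62, rose by a log2 fold change of 1.86 (edgeR adjusted p = 0.00321, SE 0.35), from 14.4 to 20.1 CPM in PBS+PBS to 48.6 to 70.2 CPM in PBS+TNF. Nod2, a sensor of bacterial peptidoglycan whose product is known to bind ATG16L1, had 19 counts in the 4 PBS+PBS libraries together and 632 in the 4 PBS+TNF libraries. Its level went from at most 0.575 CPM to between 8.09 and 12.6 CPM (log2 fold change 4.97, edgeR adjusted p = 0.00527, SE 1.03). Irgm1, an immunity-related GTPase, rose by 1.38 (edgeR adjusted p = 0.00658), from 17.6 to 29.9 CPM to 53.5 to 74.1 CPM. Ddit4, an inhibitor of the growth kinase mTOR, rose by 0.85 (edgeR adjusted p = 0.0327), and Trp53inp1, a stress-induced protein that binds ATG8 proteins, fell by 0.96 (edgeR adjusted p = 0.0148). Of the 15 regulators, 5 rose, 1 fell and 9 did not pass the test. Tfeb, which encodes the master activator of lysosomal genes, was low, at 1.16 to 5.49 CPM over all libraries, and had a log2 fold change of -0.73 (edgeR adjusted p = 0.214, SE 0.36).

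In the lipidation group 1 of 8 listed genes changed: Atg16l2, a relative of Atg16l1, rose by a log2 fold change of 1.75 (edgeR adjusted p = 0.0279, SE 0.49). It stayed at a low level, at 0.447 to 2.08 CPM in PBS+PBS and 2.23 to 5.59 CPM in PBS+TNF. Of 8 genes for fusion with lysosomes, Plekhm1, an adaptor that links lysosomes to ATG8 proteins, rose by 1.99 (edgeR adjusted p = 0.00579) from 5.65 to 14.6 CPM to 40.8 to 58.0 CPM. Stx17, the autophagosomal syntaxin, fell by 1.26 (edgeR adjusted p = 0.0111), from 34.8 to 62.3 CPM to 15.2 to 26.0 CPM. Among 10 lysosomal genes Ctsd, which encodes cathepsin D, fell by 0.62 (edgeR adjusted p = 0.0225). None of the 5 genes of the ULK initiation complex, the 7 of the class III kinase complex or the 7 of phagophore growth was called by edgeR with all libraries. With all libraries DESeq2, which called 17.5% of all genes in this comparison, called 4 of these genes, namely Atg13 (log2 fold change -0.73, adjusted p = 0.0217), Nrbf2 (0.81, adjusted p = 0.0416), Rubcn (-0.65, adjusted p = 0.0442) and Tmem41b (-1.10, adjusted p = 0.0276). Without DEX+TNF 3 and 4 (17.7% of all genes) edgeR called the same 4 and Atg2a (0.72, edgeR adjusted p = 0.0319). These 5 were named after their values were seen. Ulk1, the initiating kinase, had a log2 fold change of -0.61 (edgeR adjusted p = 0.221, SE 0.31). Tfe3 (1.17, edgeR adjusted p = 0.0339) and Calcoco1 (-1.01, edgeR adjusted p = 0.0427) complete the 14 and were named after their values were seen.

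**Figure D5:**
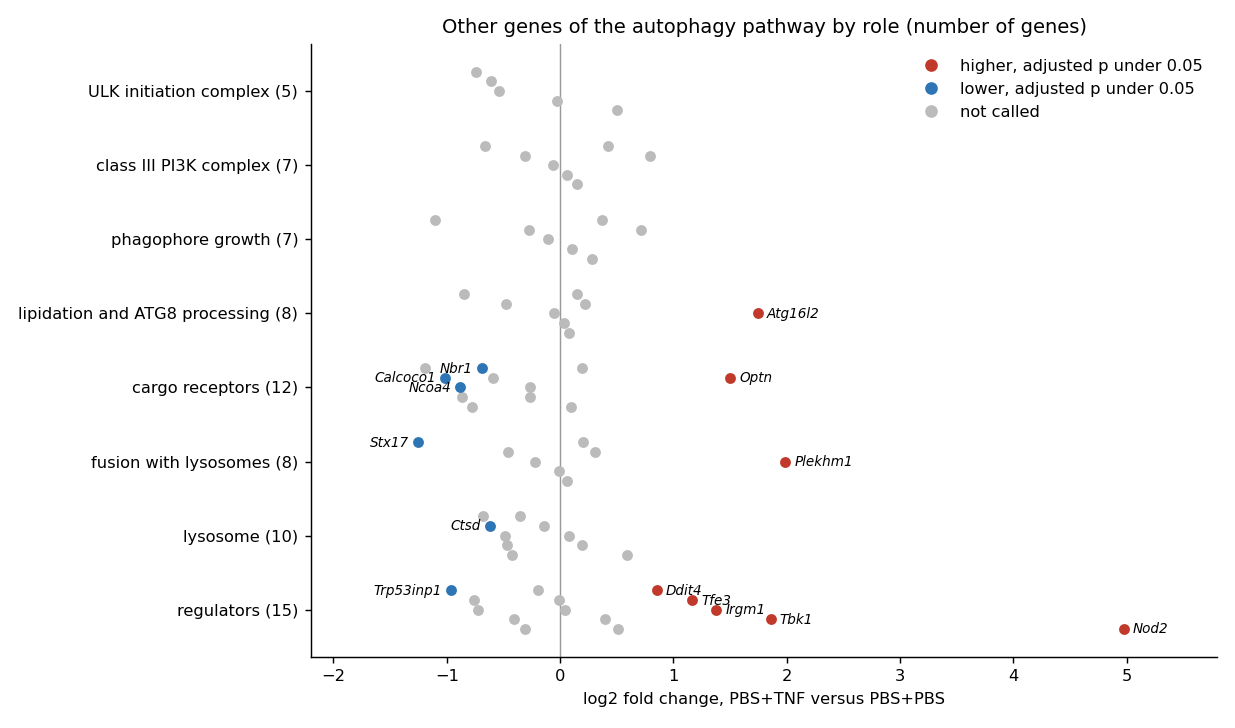
Log2 fold changes for PBS+TNF versus PBS+PBS (all libraries) of the 72 other autophagy pathway genes, by role; each point is a gene, red and blue mark genes called higher and lower, and grey those not called. Nod2 lies farthest from 0 at 4.97, and the called genes are spread over 5 of the 8 roles.

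In the other comparisons the pathway list held few calls with all libraries. For DEX+PBS versus PBS+PBS edgeR called 0 of 72 and 2 had an unadjusted p under 0.05 (224 of the 11809 genes tested). For DEX+TNF versus PBS+TNF, Trp53inp1 alone was called, at 51.4 to 97.7 CPM in PBS+TNF and 161 to 249 CPM in DEX+TNF (log2 fold change 1.49, edgeR adjusted p = 0.0264, SE 0.24), and these ranges did not overlap. Its log2 fold change was 1.36 (edgeR adjusted p = 0.174) without DEX+TNF 3 and 4, when edgeR called 0 of 72. With 1 library left out it also lost the call without any of the PBS+TNF libraries, DEX+TNF 3 or DEX+TNF 4, at log2 fold changes of 1.34 to 1.71 (edgeR adjusted p = 0.0510 to 0.0879). For DEX+TNF versus DEX+PBS edgeR called 0 of 72 with all libraries beside 0.339% of all genes. An unadjusted p under 0.05 was found there for 10 of the 72 and for 1227 of the 11809 genes tested. Without DEX+TNF 3 and 4 it called 13, of which 11 were higher and 2 lower, beside 10.5% of all genes in that fit. Among these were Tbk1 (log2 fold change 2.17, edgeR adjusted p = 5.97e-06), Optn (1.47, edgeR adjusted p = 0.000448), Nod2 (4.52, edgeR adjusted p = 0.000101), Plekhm1 (1.56, edgeR adjusted p = 0.00300) and Irgm1 (1.15, edgeR adjusted p = 0.00401). In DEX+TNF 1 and 2, Tbk1 was at 58.7 and 60.8 CPM and Optn at 27.7 and 26.4 CPM. In DEX+TNF 3 and 4, Tbk1 was at 19.9 and 16.1 CPM and Optn at 9.08 and 10.2 CPM. For the interaction edgeR called 0 of 72 and 4 had an unadjusted p under 0.05 (642 of all genes tested). With all libraries DESeq2 called Ddit4 alone of the 72 for DEX+PBS versus PBS+PBS (0.0593% of all genes), Trp53inp1 and Sesn2 for DEX+TNF versus PBS+TNF (2.32%) and Tbk1 alone for DEX+TNF versus DEX+PBS (2.19%), of which Sesn2 was named after its values were seen.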

How the data were processed

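The deposited table held raw counts of reads per Ensembl gene. Per the labels and the methods of the study, the authors made stranded mRNA libraries and aligned the reads with STAR to GRCm39 (mm39) with GENCODE M30. The counting program, its use of strand and its treatment of reads that match several genes are not given in the sources used here, so counts of genes that overlap on opposite strands are uncertain. Groups and replicate numbers came from the labels.

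Gene names came from GENCODE M39, which held 54749 of the 55414 identifiers. edgeR 4.0.16 fitted 4 group means to the 16 libraries (filterByExpr, TMM factors, robust quasi-likelihood test, two-sided), for the 4 comparisons that differ in 1 injection and the interaction. Benjamini-Hochberg adjustment ran over the 11809 genes tested, and a gene with an adjusted p under 0.05 was called. SE is the size of the log2 fold change divided by the square root of F. The procedure was tested on simulated counts with known changes. These held no split within a group like that seen in DEX+TNF, so the test does not cover that case. DESeq2 1.42.0 was an alternative. Counting errors cover sampling of reads only.

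The members and lists were chosen with earlier results of these data known. Named were the 10 members, up to 12 called pathway genes per comparison, Ulk1, Tfeb, Nod2, Optn and Gabarapl2, and TNF and glucocorticoid targets. Sequences came from RefSeq (GRCm38.p6) and GENCODE, and 1 coding end is not reported here. Marker lists of 10 cell types were summed per library as plain CPM. Alternatives were other scaling factors, filters, DESeq2, fits of fewer libraries and the replicate number as a block.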

Additional observations from a re-analysis of the deposited data

Results flagged for a closer look

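In groups of 4 libraries, the gap between an extreme library and its nearest neighbour was compared with the range of the group by Dixon's ratio. Of 40 tests over the members, 3 passed the 95% critical value, and chance flags about 1 in 20. Atg7 was at 26.8 CPM in PBS+PBS 4, against 37.5 to 39.6 CPM in the other PBS+PBS libraries. Gabarapl1 was at 60.0 CPM in PBS+TNF 2, against 49.3 to 50.9 CPM in the other PBS+TNF libraries. Sqstm1 was at 136 CPM in DEX+PBS 4, against 169 to 175 CPM in the other DEX+PBS libraries.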

How the results depend on the processing

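Over 50 log2 fold changes (10 members in 5 comparisons) and 1290 alternative values, 1228 kept their sign and side of the threshold, 12 came to pass the threshold, 0 lost a call and 50 changed sign, the largest of these being 0.22 in size. Sqstm1 for PBS+TNF versus PBS+PBS was called in every alternative run. DEX+TNF versus DEX+PBS rests on 2 to 4 libraries that differ in their TNF targets, and this limits what can be said of Sqstm1 and Gabarapl1 there. Counting error was at most about 12.4% for any member in a library, in Atg16l1.

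Without DEX+TNF 3 and 4, members called were 2 for PBS+TNF versus PBS+PBS (Atg7 added, at -0.55) and 2 for DEX+TNF versus DEX+PBS. Pathway genes called were 20 for PBS+TNF versus PBS+PBS (11 higher and 9 lower, against 14 with all libraries). They were 13 for DEX+TNF versus DEX+PBS and 0 for DEX+TNF versus PBS+TNF. The shares of all genes called in these comparisons were 17.7%, 10.5% and 0%, against 12.5%, 0.339% and 0.339% with all libraries. The same fit turned the sign for DEX+TNF versus PBS+TNF of Atg16l1 (0.15), Atg4b (-0.063), Atg5 (-0.0095), Becn1 (0.072), Gabarapl1 (0.065), Map1lc3a (0.013) and Sqstm1 (0.18), for DEX+TNF versus DEX+PBS of Atg5 (-0.0351) and Atg7 (0.17), and for the interaction of Atg16l1 (0.043), Becn1 (0.15) and Sqstm1 (0.22). Upper-quartile factors moved the median of all genes for PBS+TNF versus PBS+PBS to -0.15 and lowered the percentage of calls in the higher direction to 46.3% (57.2% with TMM). With them 2 members were called there (Atg7 at -0.66) beside 13.7% of all genes. The sign then turned for Atg16l1 (0.018) and Map1lc3b (0.047) in DEX+TNF versus PBS+TNF, Atg5 (-0.04) in DEX+TNF versus DEX+PBS and Map1lc3b (-0.043) in PBS+TNF versus PBS+PBS. With a mean of at least 5 CPM, 2 members were called for PBS+TNF versus PBS+PBS (Atg7 at -0.58) beside 15.9% of all genes. Without PBS+PBS 4 and PBS+TNF 1, an alternative chosen after seeing the data, 2 members were called there (Atg7 at -0.71) beside 10.5% of all genes. In that fit 0 pathway genes were called for DEX+TNF versus PBS+TNF (0.0665% of all genes). The sign turned for Gabarap in DEX+PBS versus PBS+PBS (0.12) and Map1lc3b in DEX+TNF versus PBS+TNF (0.18). DESeq2 called 2 members for DEX+TNF versus DEX+PBS, and 1 pathway gene there (2.19% of all genes). For DEX+PBS versus PBS+PBS it called 1 pathway gene (0.0593% of all genes) and for DEX+TNF versus PBS+TNF it called 2 (2.32%). The TNF comparison without DEX gave 20 pathway genes (17.5% of all genes). Fitting only the groups compared gave 0 pathway genes for DEX+TNF versus PBS+TNF (0% of all genes). Ranks of level moved for Map1lc3b and Gabarapl1 (3 and 4), Becn1 and Map1lc3a (6 and 7) with the longest transcript and for Map1lc3b, Sqstm1 and Gabarapl1 (2, 3 and 4) with the canonical transcript, the latter chosen after seeing the data. The cause of these changes was not tested.

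With each library left out in turn, members called ran from 1 to 2 for PBS+TNF versus PBS+PBS (2 without PBS+PBS 4, beside 13.6% of all genes). For DEX+TNF versus DEX+PBS they ran from 0 to 2 (1 without DEX+TNF 3, beside 3.01% of all genes, and 2 without DEX+TNF 4, beside 1.93%). Pathway genes called ran from 8 to 16 for PBS+TNF versus PBS+PBS (8 without PBS+PBS 1 or PBS+TNF 3, 9 without PBS+PBS 2, PBS+TNF 1 or PBS+TNF 4). The share of all genes called there ran from 7.6% to 14.2%. For DEX+TNF versus DEX+PBS they ran from 0 to 3 (0% to 3.01% of all genes). For DEX+TNF versus PBS+TNF they ran from 0 to 1 (0% to 0.846% of all genes), with 0 without DEX+TNF 3, DEX+TNF 4 or any PBS+TNF library. Ranges of log2 fold changes that crossed 0 were, for DEX+TNF versus PBS+TNF, -0.093 to 0.082 (Atg16l1), -0.068 to 0.082 (Atg4b), -0.088 to 0.23 (Atg5), -0.23 to 0.020 (Gabarap), -0.19 to 0.097 (Gabarapl1), -0.21 to 0.010 (Map1lc3a) and -0.26 to 0.20 (Map1lc3b). For DEX+TNF versus DEX+PBS they were -0.11 to 0.15 (Atg5), -0.26 to 0.0049 (Atg7), -0.21 to 0.038 (Gabarap) and -0.053 to 0.37 (Map1lc3a). For DEX+PBS versus PBS+PBS they were -0.26 to 0.11 (Gabarap), -0.040 to 0.40 (Map1lc3a) and -0.080 to 0.030 (Sqstm1), for PBS+TNF versus PBS+PBS -0.24 to 0.11 (Gabarap) and -0.14 to 0.24 (Map1lc3b), and for the interaction -0.26 to 0.097 (Gabarap).

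The groups share replicate numbers, but the labels do not say that a number marks a shared mouse, day or batch. Of 24 pairs with the same number, 13 had deviations from the group means that correlated above 0.1 (range -0.49 to 0.49, median 0.16), as did 23 of 72 pairs with other numbers (median -0.08). All pairs of replicate 2 were above 0.1 (0.20 to 0.47), but not every same-number pair was. The main fit did not use the numbers to pair the libraries, and these correlations do not settle whether the numbers mark a pairing. With the replicate number as a block, 1 member was called for PBS+TNF versus PBS+PBS and 0 in each other comparison. Over all genes, 1482 were called for PBS+TNF versus PBS+PBS (1476 without the block). For DEX+TNF versus PBS+TNF 16 genes were called (40 without the block), and for DEX+TNF versus DEX+PBS 0 (40 without it).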
